A study of Mus musculus with 6 samples.

Results

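Fibroblast growth factors and their receptors were followed in primary mouse embryonic fibroblasts that carry or lack a deletion of exon 2 in Cas. This gene, Bcar1 on the array, encodes the integrin docking protein p130Cas. The 9 genes, of 18193 named on the array, were the ligands Fgf5, Fgf2, Fgf7, Fgf10 and Fgf18 and the receptors Fgfr1, Fgfr2, Fgfr3 and Fgfrl1, with every probe set annotated to one of these symbols alone. Fgf5 was chosen because it was higher in both homozygotes, so its homozygote values are described without a test, and the other 8 genes were added as its ligand and receptor context. RNA came from Cas exon 2∆/∆ homozygotes, Cas exon 2+/∆ heterozygotes and Cas exon 2+/+ wild types, with 2 embryos of each genotype at 12.5 days post coitum and 1 Affymetrix array for each embryo. All embryos came from matings of heterozygotes, and 5 of the 6 arrays are labelled B6, while the label of wild type 1 gives no strain. Each culture was grown from what was left of 1 embryo once the head and inner organs had been taken for genotyping, in serum-containing medium, so it can hold cells other than fibroblasts. With so few arrays every value has limited precision, and p-values rest on the spread between embryos, each with its own culture.

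Fibroblast growth factors are secreted ligands that bind receptor tyrosine kinases together with heparan sulphate at the cell surface. The receptor phosphorylates docking adaptors, which switch on the Ras and MAP kinase cascade, and this cascade induces ETS factors and also Sprouty proteins and MAP kinase phosphatases that damp it. In embryonic mesenchyme the ligands Fgf7 and Fgf10 signal to neighbouring epithelium through the epithelial splice form of Fgfr2, Fgf5 is known in the mouse for ending the growth phase of the hair follicle, and Fgfrl1 resembles the other receptors outside the cell but has no kinase domain.

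Probe sets, which are groups of short probes against a transcript, each have 1 intensity on an array. Levels below are log2(intensity + 1.78) after quantile normalization. For dim probe sets, differences of such levels come out smaller than the true change. Levels of different probe sets cannot be set against each other. The median deposited intensity ranged between 21.9 and 27.3 over the 6 arrays. The probe sets of Bcar1 check nothing about the deletion because their place in the transcript is unknown here. Probe set 1439388_s_at averaged 8.25 ± 0.25 in homozygotes, 8.25 ± 0.09 in heterozygotes and 8.89 ± 0.68 in wild types (log2 level, SD, n = 2 each). Its wild types were at 9.37 and 8.42, and its homozygotes at 8.08 and 8.43. The other, 1450622_at, averaged 7.28 ± 0.17, 7.42 ± 0.23 and 7.78 ± 0.60 in the same order of genotypes. Wild type 1 was the highest array in both (9.37 and 8.21). All 12 fibroblast markers lay above the intensity filter. The Y-linked gene Eif2s3y was at 8.76 and 8.61 in the homozygotes, 1.24 and 1.70 in the heterozygotes, and 3.61 and 8.37 in wild types 1 and 2. Embryo sex by these genes and genotype therefore cannot be told apart between homozygotes and heterozygotes. Wild type 1 stood apart with the lowest summed intensity of fibroblast markers, 50901 against 63253 to 76402 in the other 5 arrays. Some results that rest on it, though not all, are therefore given with and without it.

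The 9 genes had 17 probe sets, of which 12 from 7 genes were among the upper 50% by mean log2 intensity, the 22519 probe sets that were tested. The lowest mean level tested was 4.57. The Fgf2 probe set lay just inside this limit, with a mean of 4.72, and those of Fgf18 and Fgf10 lay just outside, with 4.39 and 4.18. A further probe set each of Fgf5, Fgfr2 and Fgfr3 was also below it. A probe set that passed only through the genotype in which it was bright had to differ, so the 12 do not stand for all probe sets of the 9 genes.

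Fgf5 was brighter in both homozygotes than in any other array. Its tested probe set (1438883_at) had deposited intensities of 119.2 and 113.8 in the homozygotes, 54.0 and 59.5 in the heterozygotes, and 42.1 and 34.5 in the wild types. After normalization the log2 levels were 6.87 and 6.95 in the homozygotes, 5.79 and 5.74 in the heterozygotes, and 5.51 and 5.29 in the wild types. The order was homozygotes, heterozygotes, wild types, and no 2 genotypes overlapped. The mean level was 6.91 ± 0.06 in homozygotes, 5.76 ± 0.04 in heterozygotes and 5.40 ± 0.15 in wild types (SD, n = 2 each). Homozygotes were thus 2.51-fold above the mean of the other genotypes (log2 difference 1.33), 2.85-fold above wild types (1.51) and 2.21-fold above heterozygotes (1.15). Among all tested probe sets, 3.27% had both homozygotes above the other 4 arrays, and Fgf5 was chosen for this. Leaving out any one array gave log2 differences between 1.27 and 1.38.

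The difference between heterozygotes and wild types played no part in the choice of Fgf5. Heterozygotes were higher by 0.36 on the log2 scale (SE 0.21, 95% interval -0.16 to 0.88), which did not pass the test (limma adjusted p = 0.84). Both heterozygote levels lay above both wild-type levels, as they did for 17.9% of all tested probe sets.

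The other Fgf5 probe set (1426186_a_at) was below the intensity filter and varied more between arrays. Its log2 levels were 5.00 and 4.70 in the homozygotes, 3.74 and 1.99 in the heterozygotes, and 2.65 and 4.39 in the wild types. The homozygotes were above the other 4 arrays (log2 difference 1.66), but heterozygotes and wild types overlapped. Fgf5 was chosen on these same arrays, so this is no separate observation. With a pseudocount of 16 the difference was 0.81. With a covariate for embryo sex the difference of this dim probe set was 0.04, while that of the tested probe set was 1.53. That covariate varied within genotypes mostly between the 2 wild types, so neither value separates sex from genotype.

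**Figure D1:**
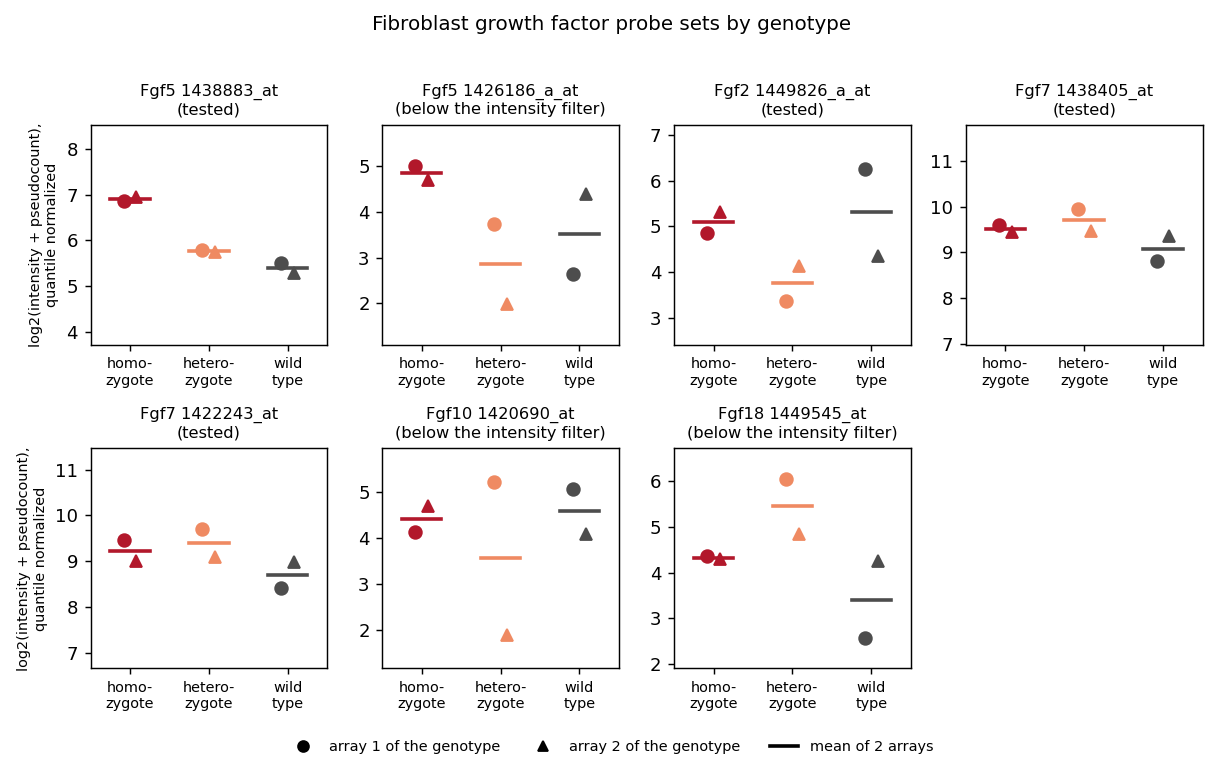
Log2 levels (vertical axis, the same span in each panel) of the 7 probe sets of the 5 ligands by genotype (horizontal axis), with 1 point for each array and a line at the mean of 2 arrays. The tested Fgf5 probe set was at 6.87 and 6.95 in homozygotes, above 5.29 to 5.79 in the other 4 arrays, while in no panel of Fgf2, Fgf7, Fgf10 or Fgf18 did both homozygotes lie above or below all others.

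The start region of the Fgf5 gene is shown because this is the transcript that was brighter in homozygotes, and that of Fgf7 because it is the ligand with 2 tested probe sets whose homozygotes overlapped the heterozygotes. RefSeq promoter sequences of the GRCm38.p6 assembly, from 250 bases before to 50 bases after the annotated start, were matched by symbol for 8 of the 9 genes, and Fgfr1 was not matched. The Fgf5 window lies at chr5:98253934-98254233 and the Fgf7 window at chr2:126034408-126034707, both on the plus strand, written 5′ to 3′ with motif matches in capitals.
Fgf5: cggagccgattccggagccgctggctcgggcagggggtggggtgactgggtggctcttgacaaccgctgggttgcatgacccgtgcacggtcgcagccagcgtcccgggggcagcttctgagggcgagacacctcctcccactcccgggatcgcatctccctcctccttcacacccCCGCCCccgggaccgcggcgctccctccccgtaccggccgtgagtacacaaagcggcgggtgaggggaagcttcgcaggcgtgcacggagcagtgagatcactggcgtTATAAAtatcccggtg
Fgf7: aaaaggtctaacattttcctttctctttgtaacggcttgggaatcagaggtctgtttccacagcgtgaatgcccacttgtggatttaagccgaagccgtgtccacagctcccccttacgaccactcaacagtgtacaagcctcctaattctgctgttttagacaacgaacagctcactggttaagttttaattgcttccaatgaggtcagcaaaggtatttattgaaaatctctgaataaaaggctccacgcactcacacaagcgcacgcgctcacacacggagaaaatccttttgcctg
The motifs searched on both strands, with no overlap between the matches in these windows, were the TATA box (TATAAA), the AP-1 site (TGANTCA), the GC box (GGGCGG) and the ETS site (CCGGAAG), of which the AP-1 and ETS sites are bound by factors at the end of the MAP kinase cascade. Of 32851 promoter windows, 13.6% held the TATA box letters, 7.81% the AP-1 letters, 35.7% the GC box letters and 8.86% the ETS letters. The Fgf5 window held 1 TATA box match that begins 35 bases after the annotated start, counting the start as 1, and 1 GC box match on the minus strand at -74. The Fgf7 window held none of the 4. G and C made up 68.3% of the Fgf5 window and 45.7% of the Fgf7 window, against a median of 52.7% over all windows. These matches describe letters in the reference and were not measured in these cells.

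Among the other ligands, Fgf7 (keratinocyte growth factor) was lowest in wild types. Its probe set 1438405_at had log2 levels of 9.60 and 9.44 in the homozygotes, 9.96 and 9.46 in the heterozygotes, and 8.81 and 9.36 in the wild types. The second probe set, 1422243_at, was at 9.46 and 8.997 in the homozygotes, 9.70 and 9.10 in the heterozygotes, and 8.42 and 8.992 in the wild types. In both probe sets the homozygotes and heterozygotes overlapped, and each lay above the wild types, homozygote 2 and wild type 2 being nearly level in the second. The difference of heterozygotes from wild types was 0.63 (SE 0.30, 95% interval -0.09 to 1.34) and 0.70 (SE 0.34, -0.12 to 1.51), with limma adjusted p = 0.84 for each. Homozygotes differed from the mean of both other genotypes by 0.12 (SE 0.26, -0.50 to 0.74) and 0.17 (SE 0.29, -0.53 to 0.88), with limma adjusted p = 1 for each. Without wild type 1, the Fgf7 differences of heterozygotes from wild type were 0.35 and 0.41, and those of homozygotes from the other genotypes were -0.01 and 0.03.

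Fgf2 (basic fibroblast growth factor), which is released without a classical signal peptide, was lowest in heterozygotes. Its log2 level was 4.86 and 5.32 in the homozygotes, 3.37 and 4.15 in the heterozygotes, and 6.26 and 4.35 in the wild types. The homozygotes lay between the wild-type arrays and above both heterozygotes, and the wild types differed from each other more than any other pair of a genotype did for this probe set. Homozygotes differed from the mean of the other genotypes by 0.56 (SE 0.55, -0.76 to 1.88, limma adjusted p = 1). Heterozygotes differed from wild types by -1.55 (SE 0.63, -3.07 to -0.02, limma adjusted p = 0.84), with an unadjusted limma p of 0.0474. The heterozygote mean, 3.76, lay below the lowest mean level tested (4.57), so Fgf2 passed the filter only through the other genotypes, and this difference supports nothing. Without wild type 1 the Fgf2 values were 1.04 for homozygotes against the others and -0.59 for heterozygotes against wild type.

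Fgf10 and Fgf18, mesenchymal ligands of limb, lung and skeletal development, were not tested. Fgf10 was at 4.13 and 4.70 in the homozygotes, 5.22 and 1.88 in the heterozygotes, and 5.07 and 4.08 in the wild types (log2 level), so the heterozygotes spanned all other arrays. Fgf18 was at 4.36 and 4.29 in the homozygotes, 6.04 and 4.85 in the heterozygotes, and 2.58 and 4.24 in the wild types. Both Fgf18 values of the heterozygotes were above the other 4 arrays, with a difference of 2.03 from wild types, and it was 1.20 without wild type 1. With a pseudocount of 16 this difference was 1.18. It was 3.35 with the covariate for embryo sex, which does not separate sex from genotype. How many probe sets below the filter had this pattern was not counted.

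Among the receptors, Fgfr1, a kinase receptor of mesenchymal cells, had its highest levels in heterozygotes in 2 of its 3 probe sets. Probe set 1424050_s_at was at 8.85 and 8.44 in the homozygotes, 9.01 and 9.24 in the heterozygotes, and 8.35 and 8.47 in the wild types (log2 level). Probe set 1425911_a_at was at 8.68 and 8.27 in the homozygotes, 8.74 and 9.05 in the heterozygotes, and 8.33 and 8.45 in the wild types. In both, the heterozygotes lay above the other 4 arrays and the homozygotes overlapped the wild types. Among all tested probe sets, 17.9% had heterozygotes above wild types without overlap, and 12.8% had homozygotes below heterozygotes. The share with heterozygotes above all other 4 arrays was not counted. Heterozygotes differed from wild types by 0.72 in the first (SE 0.25, 0.12 to 1.31, unadjusted p = 0.0253) and by 0.50 in the second (SE 0.25, -0.11 to 1.12), with limma adjusted p = 0.84 for each. Homozygotes differed from the mean of the other genotypes by -0.12 (SE 0.21, -0.64 to 0.39) and -0.17 (SE 0.22, -0.70 to 0.36), with limma adjusted p = 1 for each.

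The third Fgfr1 probe set, 1436551_at, did not follow the other 2. It was at 5.18 and 5.25 in the homozygotes, 5.47 and 5.90 in the heterozygotes, and 5.63 and 5.80 in the wild types. Here both homozygotes lay below the other 4 arrays, as they did for 4.02% of all tested probe sets, with a difference of -0.48 (SE 0.21, -0.99 to 0.03, limma adjusted p = 1). Heterozygotes differed from wild types by -0.03 (SE 0.24) in this probe set, where the other 2 gave 0.72 and 0.50. Which part of the transcript each probe set matches was not examined.

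Fgfr2, whose splice forms bind Fgf7 and Fgf10 in epithelium and other ligands in mesenchyme, was highest in homozygote 1. Probe set 1433489_s_at was at 8.85 and 7.77 in the homozygotes, 8.15 and 8.06 in the heterozygotes, and 7.18 and 7.84 in the wild types (log2 level). Probe set 1420847_a_at was at 7.84 and 6.85 in the homozygotes, 7.20 and 6.92 in the heterozygotes, and 6.60 and 6.94 in the wild types. In both, homozygote 2 lay below wild type 2 and the heterozygotes. Homozygotes differed from the mean of the other genotypes by 0.50 (SE 0.35, -0.36 to 1.36) and 0.43 (SE 0.32, -0.35 to 1.20), with limma adjusted p = 1 for each. Without homozygote 1 these differences were -0.03 and -0.07, so homozygote 1 set their direction. The third Fgfr2 probe set, 1443211_at, was below the filter, at 2.06 and 1.98 in the homozygotes and 2.28 to 3.42 in the other 4 arrays. Of 7 epithelial markers, 3 lay above the filter, and their summed deposited intensity over all 7 was 184.2 and 118.1 in the homozygotes, 152.2 and 190.5 in the heterozygotes, and 228.6 and 134.5 in the wild types. The epithelial sum was highest in wild type 1, and the part of epithelial cells in the Fgfr2 values was not tested.

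Fgfr3, a kinase receptor that restrains growth of cartilage, overlapped in all pairs of genotypes in its tested probe set. This probe set, 1421841_at, was at 5.77 and 5.25 in the homozygotes, 6.29 and 5.17 in the heterozygotes, and 5.56 and 5.42 in the wild types (log2 level). Homozygotes differed from the mean of the other genotypes by -0.10 (SE 0.35, -0.95 to 0.75), and heterozygotes from wild types by 0.24 (SE 0.41, -0.74 to 1.22), with limma adjusted p = 1 and 0.93. The other Fgfr3 probe set (1425796_a_at), below the filter, was at 2.22 and 4.26 in the homozygotes, 3.87 and 3.91 in the heterozygotes, and 2.92 and 2.495 in the wild types. There the heterozygotes lay above the wild types (difference 1.19), and homozygote 2 was the highest array. Heterozygote 1, the highest array of the tested Fgfr3 probe set but not of the dim one, was also the highest for the summed intensity of 6 cartilage markers, which was 488.7 and 242.1 in the homozygotes, 613.6 and 430.2 in the heterozygotes, and 189.6 and 239.8 in the wild types. Of these 6 markers, Acan, Col9a1 and Matn1 were below the filter. The part of cartilage cells in the Fgfr3 values was not tested. In bulk RNA, fewer cells of a type and less RNA per cell cannot be told apart.

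Fgfrl1, the receptor without a kinase domain, was likewise highest in heterozygote 1. Probe set 1447878_s_at was at 8.96 and 9.05 in the homozygotes, 9.79 and 8.83 in the heterozygotes, and 8.53 and 9.22 in the wild types (log2 level). Probe set 1451912_a_at was at 7.76 and 7.95 in the homozygotes, 8.72 and 7.92 in the heterozygotes, and 7.46 and 8.06 in the wild types. Both probe sets had the same highest and the same lowest array, and all genotypes overlapped. Homozygotes differed from the mean of the others by -0.09 (SE 0.34, -0.91 to 0.74) and -0.18 (SE 0.30, -0.92 to 0.55), with limma adjusted p = 1 for each. Heterozygotes differed from wild types by 0.44 (SE 0.39, -0.51 to 1.39, limma adjusted p = 0.87) and 0.56 (SE 0.35, -0.29 to 1.41, limma adjusted p = 0.84), and by 0.09 and 0.26 without wild type 1.

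**Figure D2:**
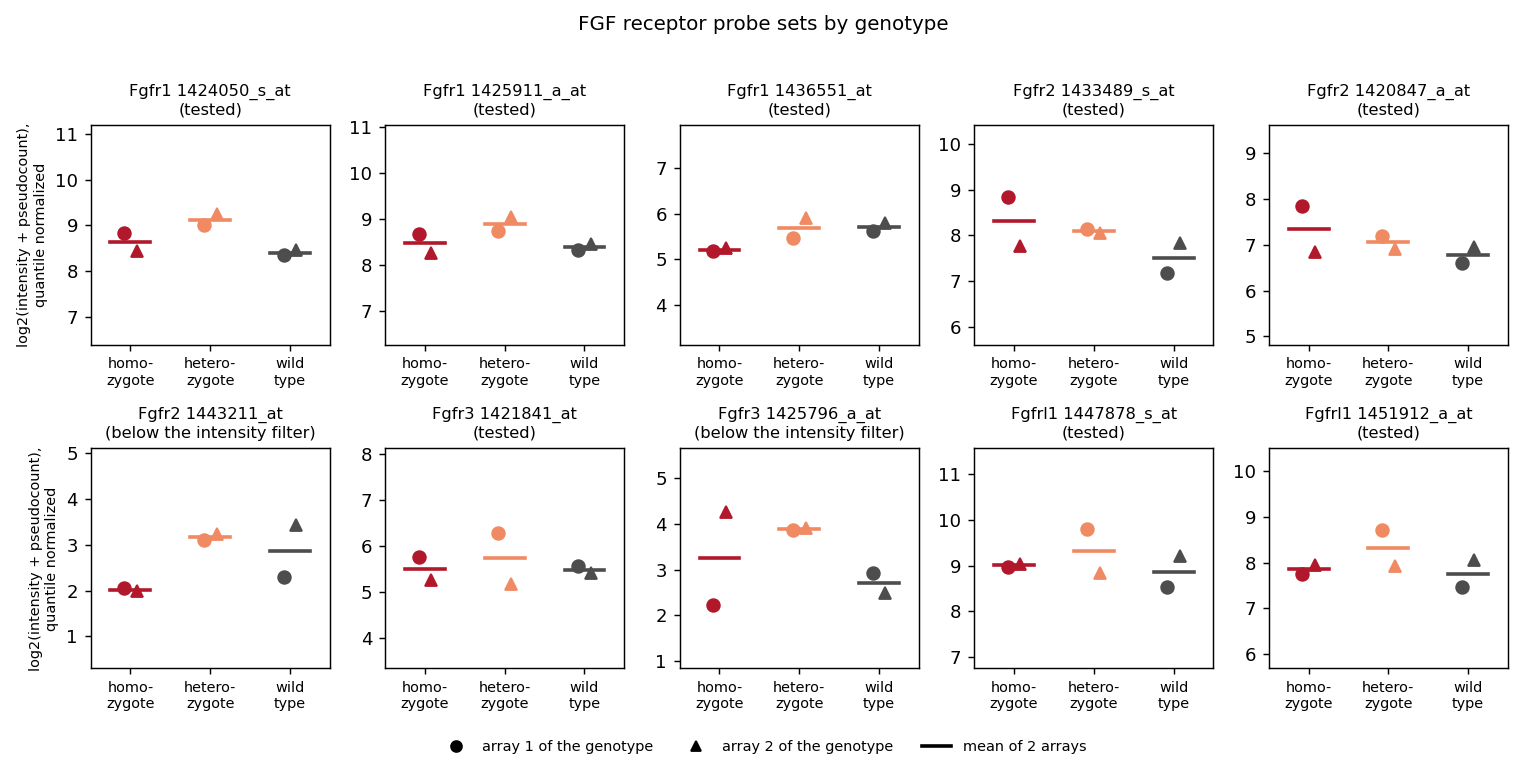
Log2 levels (vertical axis, the same span in each panel) of the 10 probe sets of the 4 receptors by genotype (horizontal axis), with 1 point for each array and a line at the mean of 2 arrays. The heterozygotes lay above the other 4 arrays for the first 2 Fgfr1 probe sets, homozygote 1 was highest for the tested Fgfr2 probe sets, and heterozygote 1 was highest for Fgfrl1 and the tested Fgfr3 probe set. The share of all tested probe sets with heterozygotes above the other 4 arrays was not counted.

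Across the 12 tested probe sets, limma called 0 in homozygotes against both other genotypes and 0 in heterozygotes against wild types, and over the array it called 0% in each of these comparisons. At an unadjusted p under 0.05, 560 of all 22519 probe sets (2.49%) passed in the first comparison and 1185 (5.26%) in the second. Of the 12, 6 were higher and 6 lower in homozygotes than in the mean of the other genotypes, with a median difference of 0.02, against a median of -0.0039 over all tested probe sets. Against wild types alone, homozygotes were higher for 10 of the 12 and lower for 2, with a median of 0.18, and limma called 0, while 3.8% of all tested probe sets had an unadjusted p under 0.05. Fgf5 and both Fgf7 probe sets lay above the wild types without overlap, against 13.3% of all tested probe sets, and Fgfr1 1436551_at lay below them, against 14.9%. Against heterozygotes alone, homozygotes were higher for 4 and lower for 8, with a median of -0.20, and limma called 0, while 2.17% of all tested probe sets had an unadjusted p under 0.05. Fgf5 and Fgf2 lay above the heterozygotes without overlap, against 12% of all tested probe sets, and all 3 Fgfr1 probe sets lay below them, against 12.8%. In both comparisons Fgf5 was chosen on these arrays. Fgf2 passed the filter only through the genotypes other than the heterozygotes, so its place above the heterozygotes supports nothing. In homozygotes against both other genotypes, the intervals of the 11 probe sets other than Fgf5 all included 0, with standard errors between 0.21 and 0.55, so equal levels are not shown.

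Heterozygotes were higher than wild types for 10 of the 12, with a median of 0.47 where all tested probe sets had a median of -0.0082. The heterozygotes did not overlap the wild types and were higher for 6 of the 12, against 17.9% of all tested probe sets, and lower for 1, against 19.3%. The 6 are Fgf5, both Fgf7 probe sets, 2 of Fgfr1 and 1 of Fgfr2, so 4 genes stand behind them. The 1 that was lower is Fgf2, which passed the filter only through the other genotypes, so it supports nothing. Without wild type 1, 6 of the 12 were still higher, against 31.9% of all tested probe sets. Fibroblast markers moved alongside, since 11 of 12 were higher in heterozygotes than in wild types, with a median difference of 0.75. For 9 of them the genotypes did not overlap, against 17.9% of all tested probe sets. The median of the centred fibroblast marker levels was -0.74 in wild type 1 and -0.06 in wild type 2, so this difference rests in part on wild type 1. Their summed deposited intensity was 69587 and 64543 in the homozygotes, 69292 and 76402 in the heterozygotes, and 50901 and 63253 in the wild types. The part of fibroblast content in the heterozygote values was not tested.

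**Figure D3:**
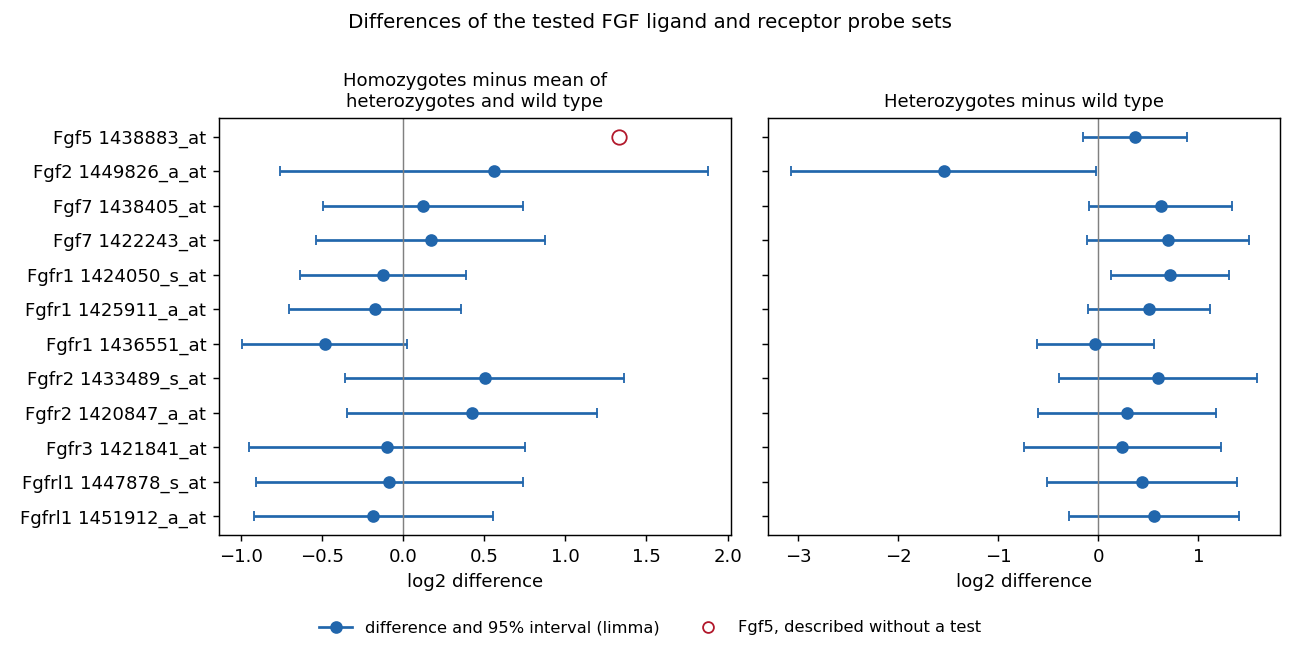
Log2 differences (horizontal axis) with limma 95% intervals for the 12 tested probe sets (vertical axis), homozygotes minus the mean of heterozygotes and wild types on the left and heterozygotes minus wild types on the right. Fgf5 is an open circle without an interval on the left because it was chosen on that difference, at 1.33, and the other 11 intervals there include 0. On the right 10 of 12 differences are above 0.

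The Fgf5 pattern was set beside embryo sex and other cell types. Eif2s3y was high in both homozygotes (8.76 and 8.61) and in wild type 2 (8.37), and lower in the other arrays. Macrophage markers were higher in homozygotes for 10 of 10 genes, as were 49.3% of all tested probe sets. For 5 of the 10 markers both homozygotes lay above all other arrays, against 3.27% of all tested probe sets. The macrophage markers had a median difference of 1.29, and limma called 0 of them. Their summed deposited intensity was 12564 and 6335 in the homozygotes, 4590 and 4785 in the heterozygotes, and 2708 and 5722 in the wild types. Fgf5 in the same arrays was at 6.87 and 6.95 in the homozygotes, 5.79 and 5.74 in the heterozygotes, and 5.51 and 5.29 in the wild types. None of the 10 macrophage markers was below the filter. Of 4 tested adipocyte markers, all were higher in homozygotes, with a summed intensity over 5 markers of 3138 and 1552 in the homozygotes, 1095 and 887.2 in the heterozygotes, and 580.3 and 776.6 in the wild types, and Adipoq, the defining secreted product of fat cells, was below the filter. Neural and Schwann markers were lower for 4 of 4 tested, and their summed intensity over 7 was 469.3 and 464.8 in the homozygotes, 1283 and 2181 in the heterozygotes, and 2404 and 1744 in the wild types. Most of that sum came from Stmn2. The part of these cell types in the Fgf5 difference was not tested, and embryo sex cannot be told apart from genotype between homozygotes and heterozygotes.

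**Figure D4:**
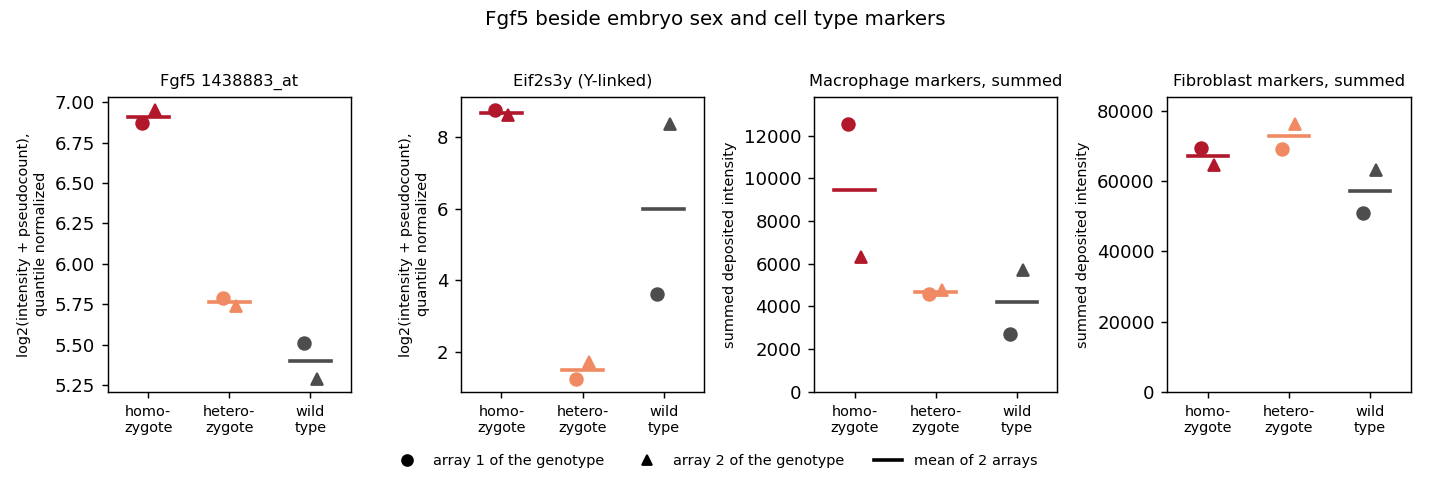
Fgf5 (log2 level), the Y-linked gene Eif2s3y (log2 level) and the summed deposited intensities of macrophage and fibroblast markers, each on its own vertical axis, by genotype (horizontal axis), with 1 point for each array and a line at the mean of 2 arrays. In the homozygotes Fgf5 was at 6.87 and 6.95 and the macrophage sum was 12564 and 6335. Eif2s3y was high in both homozygotes and in wild type 2.

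Likeness to a gene was measured as the root mean square difference of centred log2 levels over the 6 arrays, as a description of these arrays. The 5 genes nearest to Fgf5 were the blood cell transcription factor Lyl1 (0.17), the tendon membrane protein Tnmd (0.25), the interferon-inducible gene Ifi204 (0.29), the actin-capping protein Capg (0.29) and Rmi1 (0.29), a subunit of a DNA helicase complex. Lyl1 was at 5.64 and 5.65 in the homozygotes, 4.71 and 4.81 in the heterozygotes, and 4.47 and 4.49 in the wild types. Because Lyl1 was picked for likeness on these arrays, its sharing the genotype order of Fgf5 is no separate observation. The nearest gene to Fgf2 was Kcnab1 (0.18), to Fgf7 Itfg1 (0.04), to Fgfr1 Trip12 (0.05), to Fgfr2 Samd9l (0.07), to Fgfr3 Negr1 (0.11) and to Fgfrl1 Cxxc5 (0.07).

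Other genes of the pathway were higher in homozygotes in some cases and lower in others. With 2 arrays a genotype, equal levels are not shown by this. Each list below was counted on the brightest probe set of each gene, and limma called 0 genes of any list in any comparison. Of 17 other FGF ligands, 2 were tested, and the rest lay below the filter. Fgf13, an intracellular homologue that binds sodium channels, was at 6.46 and 6.65 in the homozygotes, 6.23 and 6.71 in the heterozygotes, and 7.36 and 7.01 in the wild types, and it differed by -0.27 (SE 0.23) in homozygotes from the others. Fgf9 differed by -0.26 (SE 0.41). Both were lower in both heterozygotes than in both wild types, as were 19.3% of all tested probe sets. Of the remaining list genes, Fgf3 was the next brightest, with a mean level of 4.44 just below the filter.

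Of the other receptors, co-receptors and binding proteins, 5 of 8 were tested, and 3 were higher and 2 lower in homozygotes than in the mean of the other genotypes. The receptor-associated membrane proteins Flrt2 and Flrt3 differed by 0.29 (SE 0.31) and 0.21 (SE 0.24), and the ligand carrier Fgfbp3 by -0.33 (SE 0.30). Heparan sulphate proteoglycans, which hold the ligand at the receptor, had 4 of 10 tested genes higher and 6 lower, with a median of -0.06. Their brightest were the glypican Gpc4 (-0.10, SE 0.23) and the syndecans Sdc1 (-0.38, SE 0.29) and Sdc2 (-0.24, SE 0.23). The only one of the 10 with both homozygotes above the other arrays was the glypican Gpc3, named after its values were seen. Among all tested probe sets 3.27% had such a pattern. Gpc3 was at 6.70 and 7.02 in the homozygotes, 5.23 and 5.91 in the heterozygotes, and 4.22 and 6.12 in the wild types (difference 1.49, SE 0.53, limma adjusted p = 1). Enzymes that build or trim heparan sulphate had 3 of 11 higher and 8 lower, with a median of -0.07, and the sulphatase Sulf2 (0.0040, SE 0.31) and the sulphotransferases Hs6st2 (0.02, SE 0.23) and Hs2st1 (-0.18, SE 0.22) were the brightest.

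Signal relay genes lay close to 0, with 4 of 9 tested higher and 5 lower in homozygotes and differences between -0.11 and 0.06. The phosphatase Ptpn11 differed by -0.0044 (SE 0.18), and the kinases Map2k1 and Map2k2 by 0.05 (SE 0.22) and -0.11 (SE 0.24). Of the 16 listed, 6 were not analysed here. Feedback inhibitors had 5 of 10 higher and 5 lower, with a median of 0.03. Spry4, which FGF signalling induces, was at 5.26 and 5.88 in the homozygotes, 5.64 and 6.05 in the heterozygotes, and 6.56 and 5.86 in the wild types (difference -0.45, SE 0.31). The MAP kinase phosphatase Dusp6 was at 7.62 and 7.27 in the homozygotes, 6.53 and 7.52 in the heterozygotes, and 8.09 and 6.87 in the wild types (difference 0.19, SE 0.43). In both genes wild type 1 was the highest array. Spry2, Spred2 and Spred1, the brightest of the inhibitors, differed by -0.11 (SE 0.32), -0.03 (SE 0.23) and 0.10 (SE 0.20).

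Transcriptional targets of the cascade had 3 of 10 tested genes higher and 7 lower in homozygotes, with a median of -0.17, which was 0.12 without wild type 1. The ETS factor Etv5 was at 6.94 and 6.88 in the homozygotes, 7.32 and 7.05 in the heterozygotes, and 7.41 and 7.001 in the wild types (difference -0.29, SE 0.21). Its relative Etv4 was below the filter, at 4.14 and 3.96 in the homozygotes, 3.44 and 3.86 in the heterozygotes, and 1.46 and 1.62 in the wild types. Both homozygotes were thus the lowest arrays for Etv5 and the highest for Etv4. For Etv4 this held only after normalization, since the deposited intensity was 12.2 in homozygote 2 and 13.9 in heterozygote 2. Phlda1 (-0.88, SE 0.48), named after its values were seen, was the other tested target with both homozygotes lowest. Among all tested probe sets, 4.02% had both homozygotes below the other arrays. Phlda1 was at 10.77 in wild type 1 and between 8.49 and 9.14 in the other arrays. Cyclin D1 (Ccnd1) differed by -0.54 (SE 0.32), and the immediate early genes Egr1 and Ier3 by 0.04 (SE 0.78) and -0.15 (SE 0.40). Egr1 was at 12.48 and 10.10 in the homozygotes, 10.71 and 12.28 in the heterozygotes, and 11.61 and 10.38 in the wild types, so it differed more within a genotype than between genotypes.

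**Figure D5:**
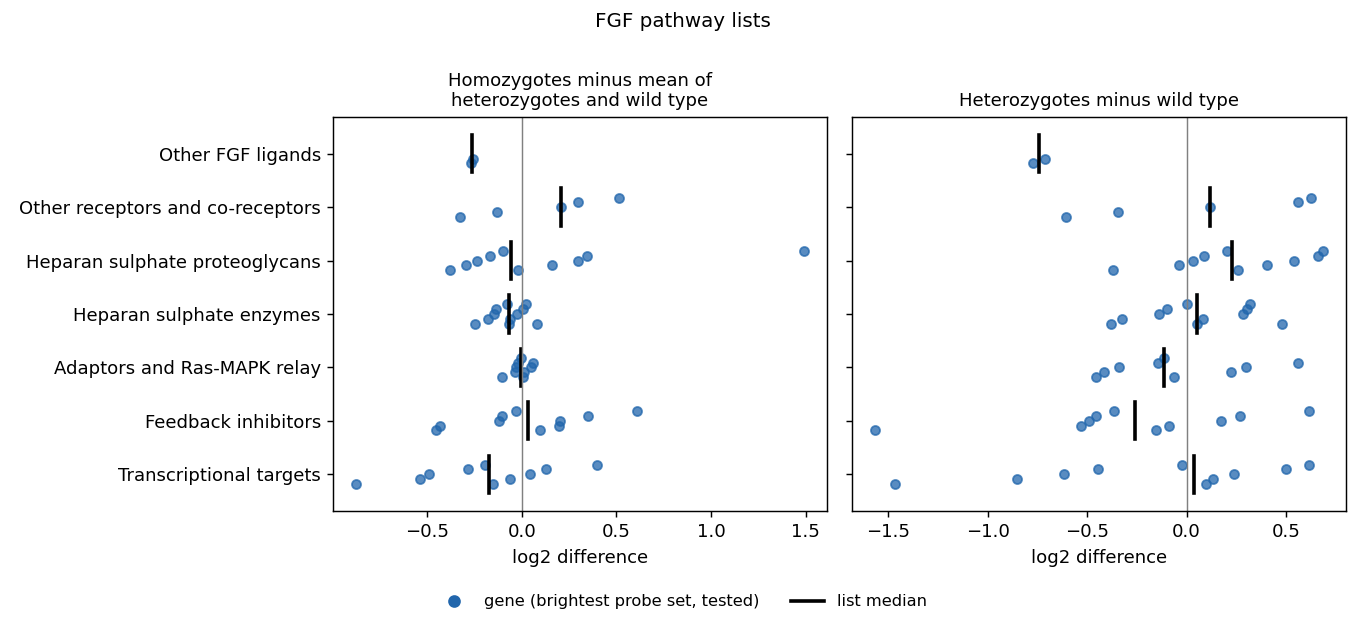
Log2 differences (horizontal axis) of the tested genes in 7 FGF pathway lists (vertical axis), homozygotes minus the mean of heterozygotes and wild types on the left and heterozygotes minus wild types on the right, with 1 point for each gene and a line at the list median. On the left the list medians lay between -0.26 and 0.21, the relay genes had the median closest to 0 (-0.0044), and Gpc3 at 1.49 stood farthest out.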

How the data were processed

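The deposited values are linear Affymetrix probe set intensities, read as such because all were above 0 and the highest was 17154, and per the labels each array was made from 2 µg of total RNA. Software, probe summary and scaling were not given in the sources used here. Intensities of 45037 probe sets, without 64 controls, were turned into log2(intensity + 1.78), the pseudocount being the 10th percentile, and quantile normalized, since the array log2 medians spanned 0.29. Symbols came from a platform annotation, updated through Entrez identifiers. A probe set had to carry 1 symbol.

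limma 3.58.1 in R 4.3.3 was fitted to all 6 arrays with a mean for each genotype (3 residual and 3.28 prior degrees of freedom), over the 22519 tested probe sets, with Benjamini-Hochberg adjustment and a threshold of 0.05. The script was tested on simulated data.

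Named genes were the 9 genes, Bcar1, the sex-linked genes Xist, Eif2s3y, Uty and Kdm5d, the nearest genes, the 3 brightest genes of each pathway list, and Spry4, Dusp6, Etv4 and Etv5. Gpc3, Phlda1, Egfl6 and the single cell type markers (Stmn2, Adipoq, Acan, Col9a1 and Matn1) fall outside this rule and were named after their values were seen. Members and lists were chosen with earlier results of these data known. Marker lists also covered endothelial and muscle cells, whose medians in homozygotes against the others were 0.05 over 4 tested genes and 0.39 over 2. Alternatives were the normalization, pseudocount, intensity filter, variance trend, a replicate block, a covariate for embryo sex (mean of Eif2s3y, Uty and Kdm5d minus Xist), only the arrays compared, averaged probe sets and each array left out.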

Additional observations from a re-analysis of the deposited data

How the results depend on the processing

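The Fgf5 difference of homozygotes from both other genotypes (1.33) was 1.11 with a pseudocount of 16, 1.53 with the sex covariate, 1.49 as the mean of its probe sets, and 1.27 to 1.38 with each array left out. The sex covariate was 3.88 and 2.24 in the homozygotes, -8.44 and -8.62 in the heterozygotes, and -5.87 and 2.93 in the wild types. Within genotypes it varied mostly between the 2 wild types, so no value with this covariate separates sex from genotype. No probe set of the 9 genes passed the test under any alternative. Calls over the array were 0 to 2 with an array left out for homozygotes against both others and against heterozygotes, and 0 to 1 for heterozygotes against wild types. They were 2 for homozygotes against heterozygotes on those arrays alone, and 1 for heterozygotes against wild types with the sex covariate. Same-numbered arrays deviated in opposite directions (correlations -0.14, -0.14 and -0.36), so the numbers were not taken as pairs. With 2 arrays a genotype, arrays of unlike number thus deviated alike to the same extent, and what they shared was not examined. With a replicate block by these numbers, 0 were called and Fgf5 stayed at 1.33. With the sex covariate, homozygotes against both others gave -0.40 and -0.42 for Fgf7 and -0.25 and -0.047 for Fgfr2, and the median of the transcriptional targets was 0.76. Against wild types it gave 0.79 for Fgf2, -0.014 for Fgfr1 1425911_a_at, and -0.21 and -0.19 for Fgfrl1. Against heterozygotes it gave -0.88 and -0.40 for Fgfr2. Averaging probe sets gave -0.021 for Fgfr2. Heterozygotes against wild types for Fgfr1 1436551_at gave 0.18 without quantile normalization, 0.013 with median centring and 0.086 with the sex covariate. The cause of these changes was not tested.

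With each array left out, the following changed sign. Homozygotes against both others ranged between -0.014 and 0.26 and between -0.058 and 0.40 for Fgf7, between -0.32 and 0.078 and between -0.37 and 0.035 for Fgfr1, between -0.033 and 1.04 and between -0.069 and 0.92 for Fgfr2, between -0.38 and 0.18 for Fgfr3, and between -0.33 and 0.16 and between -0.38 and 0.016 for Fgfrl1. Against wild types, Fgf2 ranged between -1.17 and 0.74, Fgfr1 1425911_a_at between -0.12 and 0.29, Fgfr3 between -0.24 and 0.28, and Fgfrl1 between -0.21 and 0.48 and between -0.20 and 0.39. Against heterozygotes, Fgf7 ranged between -0.44 and 0.058 and between -0.48 and 0.12, Fgfr2 between -0.33 and 0.74 and between -0.21 and 0.78, Fgfr3 between -0.78 and 0.34, and Fgfrl1 1447878_s_at between -0.78 and 0.18. Heterozygotes against wild types ranged between -0.24 and 0.18 for Fgfr1 1436551_at, between -0.32 and 0.80 for Fgfr3, and between -0.043 and 0.92 for Fgfrl1 1447878_s_at. With 2 arrays a genotype, intervals were wide, and dim probe sets had no test.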
